A study of Mus musculus with 6 samples.

Results

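The matrix metalloproteinase (Mmp), ADAMTS protease (Adamts), ADAMTS-like (Adamtsl) and TIMP (Timp) genes were examined in satellite cells, the muscle stem cells that rebuild muscle after injury. The members were the protein-coding genes whose symbol begins with Mmp, Adamts or Adamtsl followed by a digit, together with Timp1 to Timp4, which gave 50 genes of the 55536 in the count files: 22 Mmp, 19 Adamts, 5 Adamtsl and 4 Timp genes. Mmp1a, annotated as a polymorphic pseudogene and without a count in any library, is not among them. The mice were males of 8 to 12 weeks on a C57BL/6J background, with the genotype Pax7CreErt2;Hira fl/+ for the 3 control samples and Pax7CreErt2;Hira fl/fl for the 3 samples called cKO. Both groups carried the Cre, which recombines only in cells that express Pax7, and at least one floxed Hira allele. The sample labels give the controls as wild type, and the genotypes used here are those of the study's methods. All mice received a tamoxifen diet for 2 weeks and a BaCl2 injury of the Tibialis anterior, and cells sorted 5 days later (CD34+ ITGA7+ CD45- TER119- SCA1-) were cultured for 48 h in high-serum medium before RNA extraction. The methods do not say whether each RNA sample came from a separate mouse, so p-values measure the spread between these samples.

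MMPs are zinc-dependent endopeptidases that cut collagens, gelatin, elastin and other matrix proteins. Most are secreted as inactive zymogens, and the membrane-type MMPs are tethered to the cell surface. ADAMTS proteases are secreted enzymes with thrombospondin repeats that trim procollagens and cut proteoglycans such as versican, ADAMTS-like proteins have the repeats but no protease domain, and TIMPs bind and inhibit the active enzymes. In muscle, MMP activity is known for opening the basal lamina so that satellite cells can move after injury.

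Gene counts summed to between 47944477 and 63323577 in a sample. The targeted gene Hira (chromosome 16, 18877037 to 18970309, mm10) had 375, 348 and 341 counts in control against 161, 293 and 272 in cKO. Its log2 fold change of cKO over control was -0.43 with a standard error (SE) of 0.12, and the p from the quasi-likelihood test of edgeR, adjusted over all genes tested as every adjusted p given here, was 0.0237. Without control replicate 1 the adjusted p of Hira was 0.104, with a log2 fold change of -0.34. For satellite cells of these genotypes, the study reported a strong fall of Hira RNA by RT-qPCR and no detected HIRA protein in cKO. The fall in the counts here, to 0.74 of control, was smaller than that RT-qPCR fall. Counts over a whole gene and an RT-qPCR amplicon are different measures, and the reason for the gap was not tested. The satellite cell markers were present in every library, with a summed level of 7701 to 7773 CPM (the count divided by the library total and multiplied by 1000000) for 10 genes in control and 6887 to 7293 CPM in cKO, and 8 of the 10 were lower in cKO, where 6.46% of all genes were. Of these markers, Des (3181 to 3231 CPM) and Chrna1 (2306 to 2334 CPM) made up most of the sum in control. Markers of other cell types that moved with genotype are given in the paragraphs below. In bulk RNA, fewer cells of a type and less RNA per cell cannot be told apart.

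Of the 50 genes, 39 had enough counts to be tested, and 15 of these were higher and 2 lower in cKO at an adjusted p under 0.05. Over all 22404 genes tested, 9.38% were higher and 6.46% lower. The median log2 fold change was 0.17 over the 39 genes, with 31 above 0 and 8 below, and -0.0011 over all genes tested. With libraries scaled by total counts alone, 16 members were higher and 0 lower; over all genes the same change of scaling gave 2462 higher and 1057 lower genes in place of 2101 and 1448. A log2 fold change of 1 or more was reached by 6 of the 15 (1.66% of all genes were higher by that much), namely Mmp8, Mmp9, Mmp12, Mmp13, Mmp16 and Adamts12. The groups did not overlap in CPM for 21 genes that were higher in cKO and 4 that were lower, where 20.3% and 11.1% of all genes did so. Mmp9, Mmp10 and Mmp27 passed the limit on low counts (0.173 CPM in 3 samples) only through the cKO samples, so the counts over tested genes are descriptions.

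**Figure D1:**
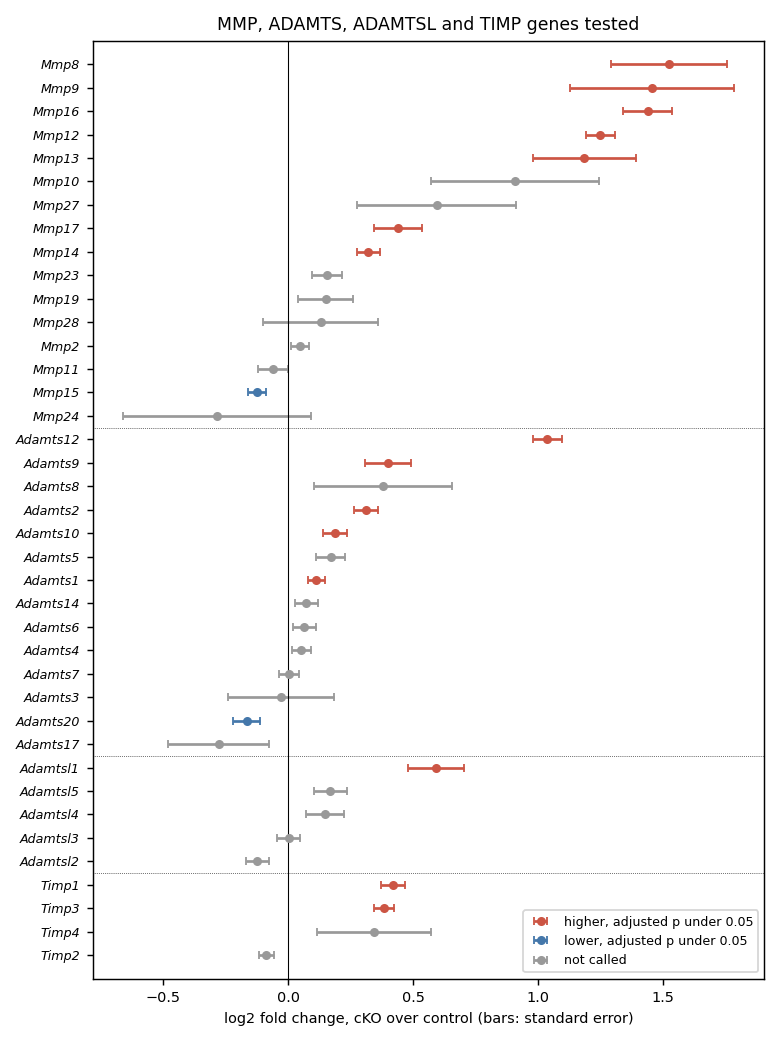
Log2 fold change of cKO over control (horizontal axis) for the 39 tested genes, grouped from top to bottom as Mmp, Adamts, Adamtsl and Timp genes and ordered within each group by fold change; points are edgeR estimates and bars are standard errors. Red marks 15 genes higher and blue 2 genes lower at an adjusted p under 0.05, and Mmp8, Mmp9, Mmp16, Mmp12, Mmp13 and Adamts12 stand farthest to the right among the red points.

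On chromosome 9, 9 Mmp members lie from 7272514 to 7699585 (mm10), a stretch of 427 kb. Their order is Mmp13, Mmp12, Mmp1b, Mmp3, Mmp10, Mmp8, Mmp27, Mmp20 and Mmp7. Mmp1a, the polymorphic pseudogene that is not a member, lies between Mmp3 and Mmp10, at 7464141 to 7476869. The cluster holds the collagenases (Mmp1b, Mmp8, Mmp13), the macrophage elastase (Mmp12), the stromelysins (Mmp3, Mmp10) and the matrilysin (Mmp7). Of the 5 that could be tested, Mmp8, Mmp12 and Mmp13 were higher and Mmp10 and Mmp27, which were tested only through the cKO samples, did not pass, while 9.38% of all genes were higher and 6.46% lower. The other 4 had too few counts to be tested. The sequence upstream of the starts of these neighbours was examined. RefSeq (GRCm38.p6, the same build as mm10) held a promoter window for 35 of the 50 members. The 15 members without an entry could not be searched, among them the called genes Mmp9, Mmp16, Mmp17, Adamts10 and Adamtsl1. The element TGAGTCA or its reverse complement TGACTCA, the classic binding sequence of AP-1 (Fos and Jun), lay within 250 bases upstream of a start in 6 of the 9 cluster genes (Mmp13, Mmp12, Mmp1b, Mmp3, Mmp10 and Mmp7) and in 0 of the 26 other members with an entry, against 5.16% of all 27025 genes. The last 110 bases before the start are shown for the 3 genes that rose and for the stromelysin neighbours, with the element in capitals. All are on the plus strand, and the Mmp12 start shown is the downstream one of a pair, inside the annotated gene; the same length of sequence before its other start, at chr9:7344287-7344396, holds no match.
Mmp13, chr9:7272404-7272513: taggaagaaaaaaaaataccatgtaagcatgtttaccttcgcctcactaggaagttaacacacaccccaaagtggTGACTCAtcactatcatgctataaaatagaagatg
Mmp12, chr9:7347264-7347373: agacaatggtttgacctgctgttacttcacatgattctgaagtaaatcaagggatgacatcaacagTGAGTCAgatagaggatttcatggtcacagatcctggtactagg
Mmp8, chr9:7558319-7558428: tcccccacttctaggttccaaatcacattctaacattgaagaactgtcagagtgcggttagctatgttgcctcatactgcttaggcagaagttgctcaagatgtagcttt
Mmp3, chr9:7445712-7445821: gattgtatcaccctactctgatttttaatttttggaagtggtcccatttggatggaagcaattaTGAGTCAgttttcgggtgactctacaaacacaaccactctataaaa
Mmp10, chr9:7502232-7502341: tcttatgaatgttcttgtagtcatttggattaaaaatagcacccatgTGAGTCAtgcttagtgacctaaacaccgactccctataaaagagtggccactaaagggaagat
The element begins 35 bases before the start in Mmp13, 44 in Mmp12, 46 in Mmp3 and 63 in Mmp10. Mmp8 has no match in its window. No binding was measured in these samples.

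Mmp12 encodes the macrophage elastase, which cuts elastin. It was the most abundant gene of the cluster, with 657, 693 and 732 counts in control against 1429, 1641 and 1445 in cKO. In CPM these were 11.6, 10.9 and 11.9 in control against 29.8, 27.7 and 25.9 in cKO. Every cKO sample was more than double every control sample, and the log2 fold change was 1.25 (SE 0.06, adjusted p = 1.5e-09). Mmp1b, which overlaps 2.17% of the Mmp12 exons on the other strand, had 0 to 2 counts per sample.

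Mmp8, the neutrophil collagenase, had 21, 30 and 18 counts in control against 67, 59 and 55 in cKO. Its groups did not overlap, and the log2 fold change was 1.52 (SE 0.23, adjusted p = 0.000301), the highest estimate among the members tested. Mmp13, a collagenase of cartilage, bone and remodelling tissue, had 31, 22 and 29 counts in control against 54, 61 and 56 in cKO, a log2 fold change of 1.19 (SE 0.21, adjusted p = 0.000883). Both were under 100 counts in every library, so counting error sets much of their spread. Mmp10, a stromelysin, had 8 to 15 counts in control and 13 to 26 in cKO, and its log2 fold change of 0.91 did not pass (SE 0.34, adjusted p = 0.0863); 3.94% of the 75-base stretches of its exons are found in Mmp3 too. Mmp27 had 10 to 11 counts in control and 11 to 16 in cKO (log2 fold change 0.59, adjusted p = 0.253). Mmp3 had 0 to 8 counts, Mmp1b and Mmp20 at most 2 and Mmp7 none in any library, which allows up to 3 counts or 0.0474 to 0.0626 CPM.

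**Figure D2:**
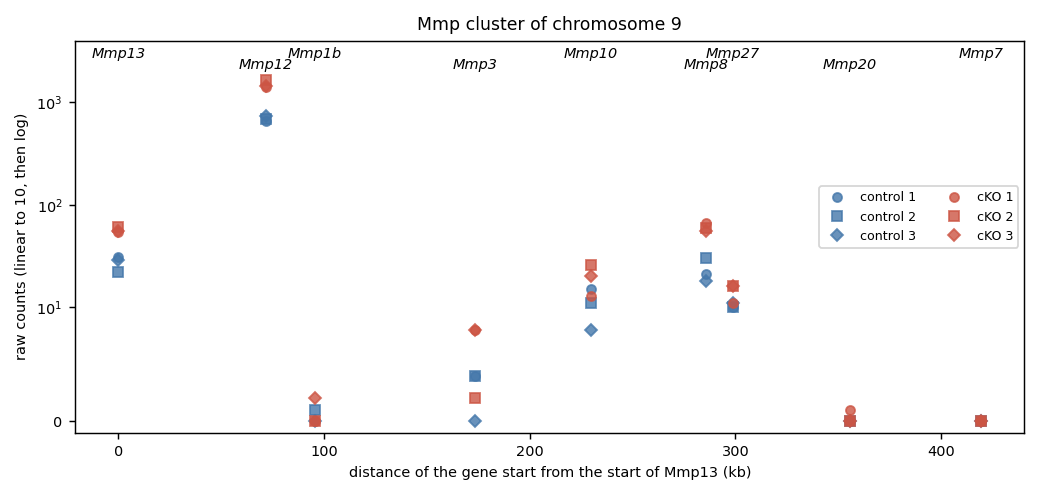
Raw counts per sample of the 9 members in the chromosome 9 Mmp cluster (vertical axis, linear up to 10 and logarithmic above). The horizontal axis is the distance of each gene's start from the start of Mmp13 in kb. Blue points are control and red points cKO samples, with circles, squares and diamonds for replicates 1, 2 and 3; the cKO points of Mmp13, Mmp12 and Mmp8 lie above all their control points, while Mmp1b, Mmp20 and Mmp7 stay at 2 counts or fewer.

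The gelatinases cut denatured collagen and basement membrane collagen. Mmp2 (chromosome 8, 92827291 to 92853420) was abundant, at 59.6, 61.8 and 59.2 CPM in control against 61.7, 65.9 and 61.8 in cKO. The groups overlapped and the log2 fold change of 0.04 did not pass (SE 0.04, adjusted p = 0.48). Mmp9 (chromosome 2, 164940780 to 164955850) was near the limit of detection, with 8, 16 and 13 counts in control against 18, 46 and 30 in cKO. The log2 fold change was 1.46 (SE 0.33, adjusted p = 0.00607), and every cKO sample was above every control sample. Without cKO replicate 2, the highest, the log2 fold change was 1.15 (adjusted p = 0.0387). Mmp9 passed the limit on low counts only through the cKO samples, so these values are descriptions. The difference in change between the gelatinases was not tested. Per length of the gene, Mmp2 had 17.9 ± 0.404 FPKM (CPM per kilobase of exon, with the SD over n = 3 samples) in control and Mmp9 0.0571 ± 0.0159.

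Markers of macrophages, which are known to make Mmp12 and other MMPs, moved with genotype. All 15 macrophage genes listed were higher in cKO (9.38% of all genes were), with a median log2 fold change of 1.06, and their levels summed to 146 to 151 CPM in control and 310 to 362 CPM in cKO. Of these, Aif1 passed the limit on low counts only through the cKO samples. Markers of neutrophils were near the floor: none of 10 passed the limit on low counts, S100a9, Ltf and Elane had 0 counts in every library, and the list summed to 0.221 to 0.336 CPM in control and 0.376 to 0.647 CPM in cKO. The part of macrophages in the levels of Mmp8, Mmp9, Mmp12 and Mmp13 was not tested. The sort was made against CD45, a leukocyte antigen. RNA of Ptprc, the CD45 gene on the macrophage list, was present in every library and rose without overlap. Its levels were 1.27 to 1.53 CPM for control and 2.63 to 2.99 CPM for cKO, an estimate of 0.96 on the log2 scale (SE 0.12, adjusted p = 5.2e-05).

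The membrane-type MMPs cut matrix at the cell surface. Mmp14 (chromosome 14, 54431612 to 54445364), the membrane-type enzyme known to activate the MMP2 zymogen together with TIMP2, was the most abundant MMP per length at 18.4 ± 0.895 FPKM in control and 23.4 ± 1.73 in cKO (SD, n = 3 each). Its levels were 107, 116 and 106 CPM in control against 138, 150 and 130 in cKO. It rose without overlap by a log2 fold change of 0.32 (SE 0.05, adjusted p = 0.000182). Mmp16 (chromosome 4, 17852893 to 18119145) rose most in this class, with 96, 99 and 103 counts in control against 214, 278 and 248 in cKO. In CPM the control samples were close to each other, at 1.70, 1.56 and 1.68, and the cKO samples at 4.46, 4.70 and 4.44 lay far above them. The log2 fold change was 1.44 (SE 0.10, adjusted p = 7.4e-08), and 1.40 to 1.46 with each sample left out.

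Mmp17, held at the membrane by a lipid anchor, rose by 0.44 on the log2 scale (SE 0.09, adjusted p = 0.0046) from 3.75 to 4.30 CPM in control to 4.87 to 6.09 in cKO. Mmp15 (chromosome 8, 95352268 to 95375080) was 1 of the 2 members that fell. It had 64.5, 63.1 and 63.7 CPM in control against 60.7, 57.4 and 60.1 in cKO, so the groups did not overlap, but the difference was small, with a log2 fold change of -0.13 (SE 0.04, adjusted p = 0.0251). The adjusted p of Mmp15 was above 0.05 without control replicate 1 (0.0955), 2 (0.068) or 3 (0.0818), without cKO replicate 2 (0.061) and with scaling by total counts alone (0.0606). Mmp24 had 13 to 16 counts in control and 7 to 18 in cKO (log2 fold change -0.28, adjusted p = 0.702), and Mmp25 at most 8 counts.

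Of the other MMPs, the groups of Mmp23 did not overlap (11.2 ± 0.394 CPM in control and 12.7 ± 0.728 in cKO, SD, n = 3 each), with a log2 fold change of 0.16 that did not pass (adjusted p = 0.0993). Mmp11, Mmp19 and Mmp28 overlapped between groups, with log2 fold changes of -0.06, 0.15 and 0.13. Of the Mmp19 exons, 28.3% overlap other genes on the opposite strand, so its counts are uncertain. Mmp21 had at most 12 counts in a library.

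Among the ADAMTS proteases, Adamts12 rose most. It encodes an enzyme that cuts the cartilage protein COMP, as does its relative Adamts7. Adamts12 (chromosome 15, 11064790 to 11349231) had 32.0, 29.8 and 29.2 CPM in control against 59.5, 70.8 and 59.4 in cKO. The groups lay far apart, and the log2 fold change was 1.04 (SE 0.06, adjusted p = 1.1e-08). Adamts7 (chromosome 9, 90163069 to 90208071) had 41.0, 42.5 and 41.9 CPM in control against 43.1, 44.0 and 40.7 in cKO, which overlap (log2 fold change 0.0025, standard error 0.04, adjusted p = 0.98). The estimate of Adamts7 was thus near 0 beside that of Adamts12; the difference between them was not tested.

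Markers of fibroblasts and mural cells moved with genotype as well. Of 12 fibroblast genes, 9 were tested and 6 were higher in cKO (9.38% of all genes), with a median log2 fold change of 0.42, and the list summed to 1215 to 1299 CPM in control and 1620 to 1799 CPM in cKO. Its members Tcf21 and Clec3b stayed at 3 counts or fewer. Of 9 pericyte and smooth muscle genes, 8 were tested, with 6 higher and 2 lower (6.46% of all genes were lower), a median of 0.23 and sums of 3290 to 3346 and 3575 to 3721 CPM. Acta2 made up most of these sums, at 2907 to 2963 CPM in control and 3128 to 3228 in cKO (log2 fold change 0.09). Of 10 endothelial genes, 5 were higher, with a median of 0.41 and sums of 18.1 to 20.6 and 28.4 to 34.1 CPM. The part of these cells in the levels of Adamts12, Mmp16, Mmp14, Timp1 and Timp3 was not tested. The study found Pdgfra and Cdh5, which stand in these lists, higher in a Hira-deficient myoblast line as well. It described them as genes of alternative lineages expressed ectopically in myogenic cells. Whether the marker RNA here came from other cells or from satellite cells was not tested. The sort took cells positive for ITGA7 and negative for SCA1. Ly6a, the SCA1 gene on the fibroblast list, had a log2 fold change of 0.24 that did not pass (adjusted p = 0.115). Its groups did not overlap, at 2.85 to 3.15 CPM in control and 3.38 to 3.82 in cKO. The 6 fibroblast genes called higher were Col1a1 (1.29), Pdgfra (1.15), Dcn (1.10), Col1a2 (0.26), Col3a1 (0.21) and Gsn (0.17).

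The ADAMTS proteoglycanases (Adamts1, Adamts4, Adamts5, Adamts8, Adamts9, Adamts15 and Adamts20) cut versican and aggrecan. Of the 6 tested, 2 were higher and 1 lower, where 9.38% and 6.46% of all genes were. Adamts9 rose by 0.40 on the log2 scale (SE 0.09, adjusted p = 0.00669), from 4.61 to 5.06 CPM in control to 6.02 to 7.52 in cKO, and without cKO replicate 2 by 0.28 (adjusted p = 0.0331). Part of its exons overlaps A730049H05Rik and Gm15737 on the opposite strand, which had at most 57 counts in a library. Adamts1 (chromosome 16, 85793827 to 85803113), with Adamts4 the most abundant of the class per length, had 69.6, 68.8 and 68.1 CPM in control against 73.3, 76.6 and 77.0 in cKO. Its groups did not overlap, with a small log2 fold change of 0.11 (SE 0.03, adjusted p = 0.0322). That call was lost without control replicate 1 (adjusted p = 0.0751), 2 (0.122) or 3 (0.129), without cKO replicate 2 (0.0622) or 3 (0.144), with DESeq2 (0.0745), with no filter (0.0573) and with the replicate block (0.0628).

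Adamts4 (chromosome 1, 171250421 to 171260637), an aggrecanase of similar abundance, had 62.5, 66.2 and 62.8 CPM in control against 65.2, 70.8 and 65.7 in cKO. The groups overlapped, and the log2 fold change of 0.05 did not pass (SE 0.04, adjusted p = 0.444). Adamts20 (chromosome 15, 94270163 to 94465418) was the other member that fell, from 18.1 to 19.9 CPM in control to 16.6 to 17.4 in cKO. The log2 fold change was -0.17 (SE 0.05, adjusted p = 0.0415), and the adjusted p was above 0.05 without any 1 of the 6 samples, at 0.0502 to 0.197, with DESeq2 (0.0838), with scaling by total counts alone (0.0806) and with the replicate block (0.0619). Adamts5, an aggrecanase, was higher without overlap (18.9 to 22.1 CPM against 22.8 to 23.1), but its adjusted p was 0.0568 (log2 fold change 0.17). Adamts8 had 16 to 29 counts in the 6 samples (log2 fold change 0.38, adjusted p = 0.43), and Adamts15 had at most 13.

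The procollagen N-proteinases remove the amino-terminal propeptide of fibrillar procollagens. Adamts2 (chromosome 11, 50602084 to 50807573) rose from 17.1 to 18.2 CPM in control to 21.6 to 23.6 in cKO, a log2 fold change of 0.31 (SE 0.05, adjusted p = 0.000371). Adamts14 (chromosome 10, 61197112 to 61273438), the other abundant member, had 33.3, 32.4 and 29.8 CPM in control against 34.1, 33.9 and 34.1 in cKO. Its groups lay side by side without overlap, but the log2 fold change of 0.07 was not called (SE 0.04, adjusted p = 0.333). Adamts3 was low, with 29 to 36 counts in the 6 samples, and its log2 fold change was -0.03.

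Of the other ADAMTS genes, Adamts10, whose product acts on fibrillin microfibrils, rose by 0.19 on the log2 scale (SE 0.05, adjusted p = 0.0174), from 15.5 to 16.4 CPM in control to 18.0 to 19.4 in cKO. Its adjusted p was 0.105 without control replicate 2, 0.0765 without cKO replicate 2 and 0.0593 with DESeq2. Adamts6 and Adamts17 overlapped between groups (log2 fold changes 0.06 and -0.28). Adamts13, Adamts16, Adamts18 and Adamts19 had too few counts to be tested, with at most 11 in a library.

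**Figure D3:**
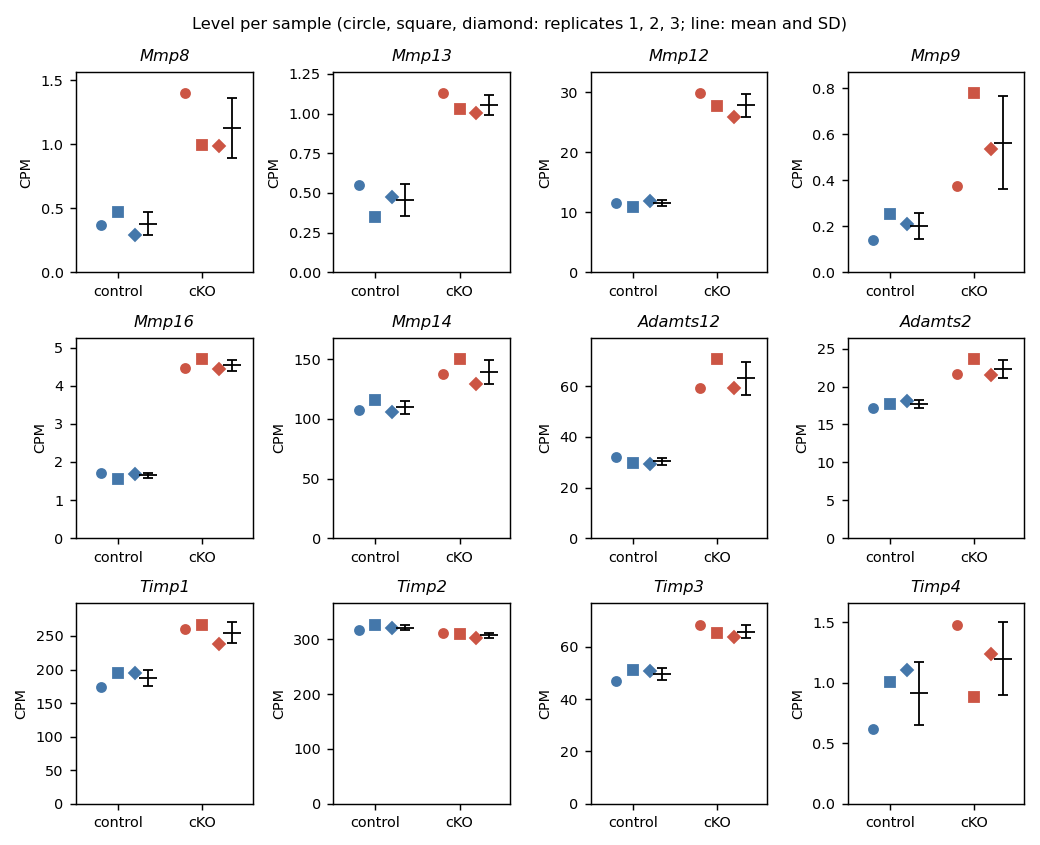
CPM per sample (vertical axes, each from 0) for 12 members in control (blue) and cKO (red), with circles, squares and diamonds for replicates 1, 2 and 3 and a black line for the mean and SD of 3 samples. In Mmp8, Mmp13, Mmp12, Mmp9, Mmp16, Mmp14, Adamts12, Adamts2, Timp1 and Timp3 every cKO point lies above every control point; in Timp2 every cKO point lies below, and in Timp4 the groups overlap.

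The 5 ADAMTS-like genes were all tested and 1 was called higher, where 9.38% of all genes were higher and 6.46% lower. Adamtsl1 (chromosome 4, 85514172 to 86428385), a secreted matrix glycoprotein gene, had 95, 116 and 123 counts in control against 129, 168 and 163 in cKO, or 1.84 ± 0.162 and 2.82 ± 0.116 CPM (SD, n = 3 each). In CPM the groups did not overlap, and the estimate was 0.59 on the log2 scale (SE 0.11, adjusted p = 0.00189). Adamtsl5, Adamtsl4 and Adamtsl3 had log2 fold changes of 0.17, 0.15 and 0.0012, none past the threshold. Adamtsl2, which binds fibrillin and latent TGF-beta binding proteins, was lower without overlap (19.7 to 20.5 CPM against 18.0 to 19.2), but with a log2 fold change of -0.12 it was not called (adjusted p = 0.0828).

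Of the 4 inhibitor genes, Timp1 and Timp3 rose, where 9.38% of all genes were higher. Timp1 (chromosome X, 20870166 to 20874735), an inhibitor of most secreted MMPs, had 173, 195 and 194 CPM in control against 261, 267 and 237 in cKO. The groups did not overlap, and the log2 fold change was 0.42 (SE 0.05, adjusted p = 1.6e-05). Timp3 (chromosome 10, 86300372 to 86349506), which binds to the matrix and also inhibits ADAMTS proteases, had 46.9, 51.1 and 50.9 CPM in control against 68.5, 65.2 and 63.8 in cKO, a log2 fold change of 0.38 (SE 0.04, adjusted p = 1.1e-05). Both kept their calls under every setting tried, at 0.36 to 0.46 for Timp1 and 0.34 to 0.41 for Timp3. Of the Timp3 exons, 21.3% overlap Syn3 on the opposite strand, and Syn3 had 9 to 34 counts per library against 2654 to 3858 for Timp3.

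Timp2 (chromosome 11, 118301069 to 118355740), which inhibits MMPs and also takes part in the activation of the MMP2 zymogen, had 317, 327 and 322 CPM in control against 311, 310 and 303 in cKO. The cKO samples lay below all controls by a small margin, and the log2 fold change of -0.09 missed the threshold (SE 0.03, adjusted p = 0.0547). It passed in 4 alternatives, among them without cKO replicate 1 (adjusted p = 0.0268) and with DESeq2 (0.0291). In the others it did not, with 0.173 for scaling by total counts alone and 0.229 without control replicate 2. Timp4 (chromosome 6, 115241892 to 115252205) was low, with 35, 64 and 68 counts in control against 71, 52 and 69 in cKO. Its groups overlapped and the log2 fold change of 0.34 did not pass (SE 0.23, adjusted p = 0.379).

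Members were ordered by level per length, so the order depends on the annotated exon length (888 bases for Timp1 and 3896 for Timp2). In CPM, Timp2 lay above Timp1, with means of 322 against 187 in control and 308 against 255 in cKO. Per length, Timp1 was first with 211 ± 13.9 FPKM in control and 287 ± 17.6 in cKO (SD, n = 3 each). Timp2 followed with 82.6 ± 1.32 and 79.0 ± 1.14. Next came Mmp14, Mmp2, Adamts1, Adamts4 and Mmp15, with means over all 6 samples of 20.9 down to 11.4 FPKM, then Timp3, Adamts7 and Adamts14 at 7.09 down to 6.33. The members with the largest fold changes stood lower in this order: Adamts12 at place 13, Mmp12 at 16, Mmp16 at 27, Mmp8 at 28, Mmp13 at 29 and Mmp9 at 35 of the 50. Summed over the 22 Mmp genes, the level was 62.1, 64.4 and 61.5 FPKM in control and 72.3, 74.1 and 69.8 in cKO. For the 4 Timp genes it was 282, 310 and 308 in control against 383, 388 and 353 in cKO. The summed Timp level was 4.55, 4.81 and 5.01 times the summed Mmp level in the control samples and 5.29, 5.24 and 5.06 times in the cKO samples. Timp1 held 69.1% to 71.1% of the Timp level in control and 75.7% to 77.4% in cKO.

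**Figure D4:**
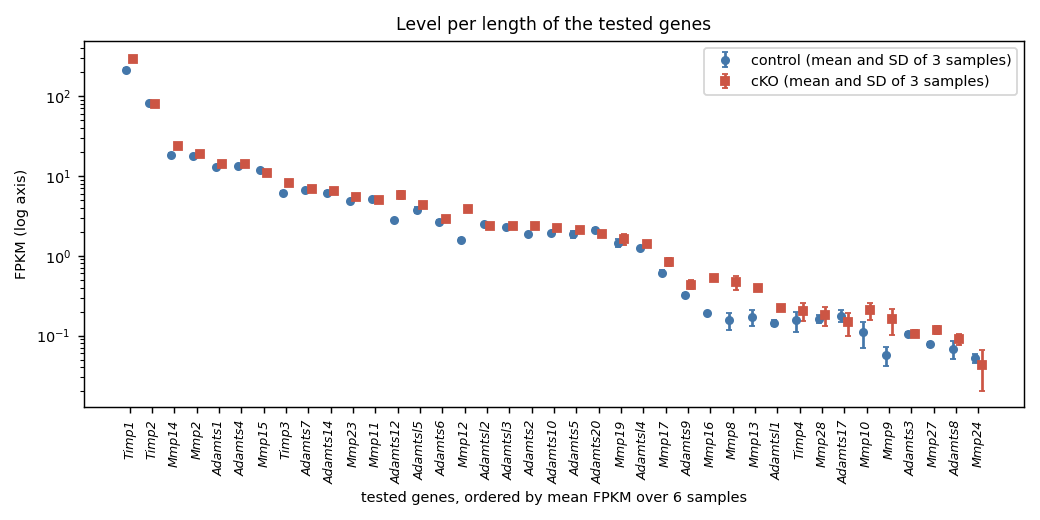
FPKM (log axis) of the 39 tested genes in control (blue circles) and cKO (red squares), as the mean and SD of 3 samples, ordered by the mean over all 6 samples. Timp1 and Timp2 lie highest, Mmp14 and Mmp2 lead the proteases, and the genes with the widest gap between groups (Adamts12, Mmp12, Mmp16, Mmp8, Mmp13 and Mmp9) lie from the middle to the low end.

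Genes that activate, inhibit or clear metalloproteinases, and their substrates, were read from the same comparison. Of 19 genes for activation, inhibition and clearance, 17 were tested, with 8 higher and 1 lower and a median log2 fold change of 0.06. Among those higher were Pcsk6 (0.78), a proprotein convertase; Thbs1 (0.70) and Thbs2 (0.27), thrombospondins that bind MMPs; Plaur (0.59), the urokinase receptor; Tfpi2 (0.60), Itgb3 (0.35) and Lrp1 (0.32), a receptor that takes up proteases and TIMP complexes. Spock2 was lower (-0.39). The convertase Furin (-0.07), the membrane inhibitor Reck (0.04), urokinase Plau (0.04) and the MMP inducer Bsg (0.06) did not pass. Among 14 substrates of ADAMTS proteases, 12 were tested and 7 were higher, with a median of 0.22: Col1a1 (1.29), Col2a1 (0.83), Col1a2 (0.26), Fn1 (0.23), Col3a1 (0.21), Cspg4 (0.15) and Vcan (0.14). Of these, Col1a1, Col1a2, Col3a1 and Cspg4 also stand in the marker lists above.

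The transmembrane ADAM genes, a related family that includes sheddases of cell-surface proteins, gave 6 higher and 1 lower of 11 tested. Their median log2 fold change was 0.25. Adam33 (1.52, at 0.154 ± 0.0468 CPM in control and 0.452 ± 0.0305 in cKO), Adam8 (0.77) and Adam15 (0.54) had the highest estimates among those called higher, followed by Adam12 (0.33), Adam19 (0.25) and Adam9 (0.15). Adam33 passed the limit on low counts only through the cKO samples. The sheddase Adam10 was lower (-0.18), and Adam17 did not pass (0.06, adjusted p = 0.238). The shares called among these 3 lists are to be read against the 9.38% higher and 6.46% lower over all genes.

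The cKO samples differed among themselves. Of the 15 members called higher, 9 were highest in cKO replicate 2, as were 60.1% of all genes called higher and 25.0% of all genes tested. Mmp8, Mmp12, Mmp13 and Timp3 were highest in cKO replicate 1, and Adamts1 and Adamtsl1 in cKO replicate 3. Without cKO replicate 2, 14 members were higher and 0 lower, and over all genes 1842 were higher and 1498 lower.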

How the data were processed

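The authors aligned single-end reads of 75 bp to mm10 with Bowtie2 2.3.4.2, an aligner that leaves reads across introns unspliced, and deposited raw counts per gene made with featureCounts 1.6.3; the kit is stranded, but the strand setting and the handling of multiply mapped reads are not given in the sources used here. A table of counts divided by size factors and the authors' table of a mean, fold change and p-values were not used. All 55536 identifiers matched GENCODE M21, which gave symbols, positions and exon lengths. CPM are counts over the library total times 1000000, and FPKM divide them by the exon length in kilobases.

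The 6 samples were compared with edgeR 4.0.16 in R 4.3.3 (filterByExpr, TMM, quasi-likelihood test, genotype as the only term) over the 22404 genes kept, with a call at an adjusted p (Benjamini-Hochberg) under 0.05. The standard error is that implied by the test. The replicate coefficient of variation of 3.92% equals counting error at 651 counts. The script was tested on simulated data. DESeq2 1.42.0 was an alternative, beside other scaling, filters, thresholds, a replicate block and each sample left out.

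Members and lists were chosen with earlier results of these data known. Sample values are given for called members with an absolute log2 fold change of 0.5 or more, the Timp genes and the 10 members highest in FPKM; other members are given by ranges and counts. A gene of the activation, inhibition and clearance list is counted but not reported here by name. Python 3.11.15, pandas 2.3.3 and matplotlib 3.10.9 made summaries and plots.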

Additional observations from a re-analysis of the deposited data

How the results depend on the processing

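Of the 17 members called, 13, all of them higher in cKO, kept their direction and their call under all 13 alternatives, which included DESeq2, a likelihood-ratio test, other scaling and filters, a replicate block and each sample left out. Adamts1, Adamts10, Mmp15 and Adamts20 lost the call in at least 1, and those values are given beside each gene. Among the 13 that kept it, Mmp9 had passed the limit on low counts only through the cKO samples. The number of members higher stayed at 13 to 16 with each sample left out. The number lower was 0 to 2 then, 0 with total counts or an adjusted p under 0.01, and 1 with the replicate block, for which 15 were higher. Over all genes, with each sample left out 1571 to 2214 were higher and 917 to 1673 lower (917, 934 and 960 without control replicates 1, 2 and 3), 732 were lower at an adjusted p under 0.01, and the block gave 1901 and 1251. The log2 fold change of Hira was -0.52 to -0.29 with each sample left out. That of Adamts7, near 0, turned to -0.0030 with DESeq2, -0.00019 with RLE size factors, -0.0023 with no filter, and lay at -0.020 to 0.028 with each sample left out (-0.012, -0.0084 and -0.020 without control replicate 1, cKO replicate 1 and cKO replicate 2). Timp2 passed in 4 alternatives. The causes were not tested.

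The samples share only a replicate number: deviations of same-numbered samples correlated at -0.0145 to -0.0045, and 0 of 6 samples correlated best with their own number. At under 100 counts, as in Mmp8, Mmp9 and Mmp13, a small change was not detectable at this depth. No group had enough samples for a test of single outlying values.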
